A study of Homo sapiens with 56 samples.

Results

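Z138 and JEKO-1 are established human cell lines of mantle cell lymphoma, a B-cell cancer, and the comparison described here sets one line against the other across the genes both were profiled for. It uses 17 of the 56 poly(A) RNA-seq libraries of the series, which holds 4 lines in all: every Z138 library (9) and JEKO-1 library (8) labelled CON, CLF, IBR, YM155 or S63845. For Z138 these are 2 CON, 2 CLF, 2 IBR, 1 YM155 and 2 S63845 libraries. For JEKO-1 they are 1 CON, 2 CLF, 3 IBR, 1 YM155 and 1 S63845 library. CON, CLF and IBR are given as codes in the labels (CON is read here as untreated), YM155 suppresses expression of survivin (BIRC5), and S63845 inhibits MCL-1. Doses and exposure times are not given in the sources used here. The study asked about BIRC5 and MCL-1 inhibition against drug resistance, so each line entered untreated and treated, and treatment was kept as a block in the fit of the line difference. Genes on chromosomes X and Y were left out.

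A lymphoma line descends from the tumour cells of a single patient, so it keeps that clone's immunoglobulin rearrangement, its genome changes and its silenced and active genes. Mantle cell lymphoma is defined by cyclin D1 (CCND1), which drives the step from G1 to S phase, and most cases also express the transcription factor SOX11. The tumours differ from each other in whether the inhibitors of that step such as CDKN2A are kept, in their dependence on B-cell receptor signalling through kinases such as SYK and PRKCB to NF-kB, and in how far they have moved from a naive B cell towards a plasma cell.

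Library depth ran from 7.07 to 19 M reads (median 16 M), recovered from the step between low values, and 3 reads correspond to 0.158 to 0.424 CPM (counts per 1000000 reads). The Z138 libraries carried 3.43 to 8.62% mitochondrial transcripts and the JEKO-1 libraries 1.91 to 20.9%, with 4 JEKO-1 libraries above 10% (the 3 IBR libraries and S63845). The same 4 libraries stood apart in RN7SL2, the RNA of the signal recognition particle, which carries no poly(A) tail: it was 848 to 11719 CPM in them, 89.9 to 105 CPM in the other 4 JEKO-1 libraries and 0.00212 to 44.8 CPM in Z138 (difference -6.08 ± 0.91, adjusted p = 2.49e-05; the gene was picked after its values were seen). The library numbers of Z138 form one run, with JEKO-1 numbers before and after it. In 4 treatments Z138 has a pair of libraries that share a number, one of them with a final A (replicate 2), and the YM155 library also ends in A; the labels do not say what the A stands for. Of the 14485 genes tested here, 3363 (23.2%) were higher in the library with the A in all 4 pairs. For some gene lists the counts are also given without the Z138 libraries ending in A or without the others, a choice made after seeing the data. Counts of further lists moved as well. Replicate numbers follow accession order, nothing in the labels says that libraries of one line came from separate cultures, and p-values therefore measure only the spread between these libraries. JEKO-1 IBR replicates 1 and 2, whose names differ by a final a, resembled each other more than other same-group pairs did. Their chi-square per degree of freedom was 5.05, beside 62.0 to 299 in the 4 Z138 pairs that differ by a final A. These are bulk samples, in which fewer cells of a kind and less RNA per cell cannot be told apart.

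Z138 and JEKO-1 differed in most of the genes they express. Of 14485 genes tested, 8080 (55.8%) passed an adjusted p under 0.05 in limma, 4068 (28.1%) higher in Z138 and 4012 (27.7%) higher in JEKO-1, and the median difference over all genes was 0.03. Differences are on the log2(CPM + 1) scale, Z138 minus JEKO-1, with the standard error of the fit; the added 1 CPM understates the change of genes at low levels. A difference of at least 1 log2 unit was passed by 2095 genes higher in Z138 and 2103 higher in JEKO-1. In 2252 genes (15.5%) the values of the 9 Z138 and 8 JEKO-1 libraries did not overlap. These percentages are the background against which each count of genes below is read.

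**Figure D1:**
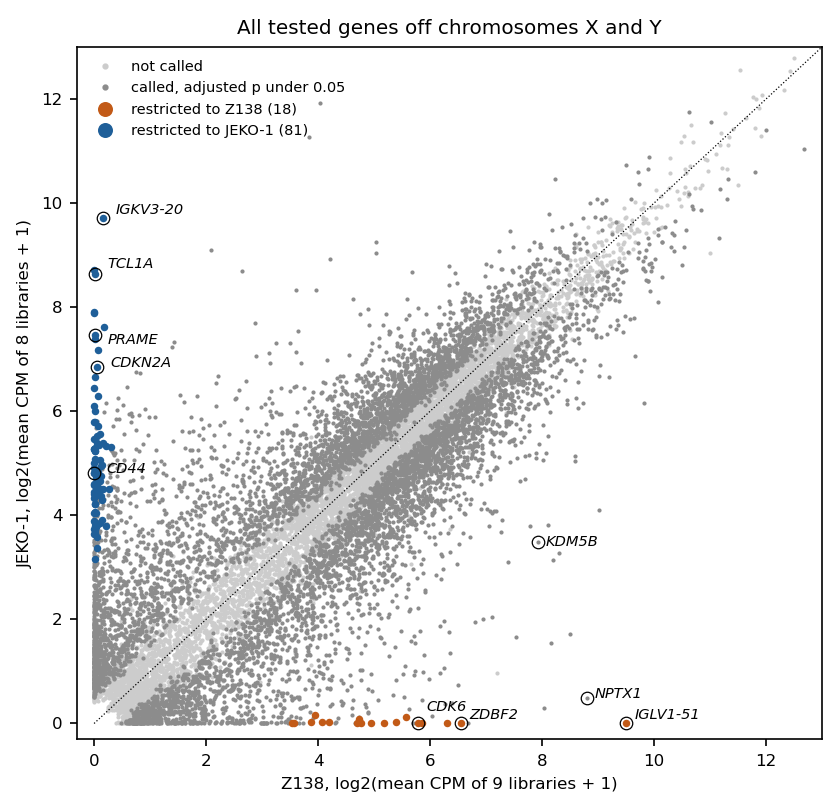
Each point is a tested gene, placed by log2 of its mean CPM plus 1 in the 9 Z138 libraries (horizontal axis) and the 8 JEKO-1 libraries (vertical axis), with called genes in dark grey and the line-restricted genes in colour. The 18 Z138-restricted genes lie along the horizontal axis and the 81 JEKO-1-restricted genes along the vertical axis, with NPTX1 far below the diagonal.

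Both lines expressed most of the B-cell markers that their label implies. Of 10 defining B-cell markers, 8 were at 1 CPM or more in every Z138 library and 9 in every JEKO-1 library, and none was listed at 0 throughout either line. Summed over the list, these markers reached 1473 to 4384 CPM in Z138 and 1937 to 4922 CPM in JEKO-1, so the ranges overlap. By gene, 5 of the 10 (50%) were called higher in JEKO-1 and 1 (10%) higher in Z138, with a median of -0.68. The shares over all genes were 27.7% and 28.1%. Those higher in JEKO-1 included CD22 (-2.18), BLK (-1.82) and CD79B (-1.22), and EBF1 (1.49) was higher in Z138. Without the Z138 libraries ending in A the counts were 3 and 1. CD20 (MS4A1), the target of rituximab, was 366 to 676 CPM in Z138 (median 489) and 247 to 728 CPM in JEKO-1 (median 537), a difference of 0.03 ± 0.22 (adjusted p = 0.914) that lies within the spread of each line and turned negative when mitochondrial genes were left out of the scaling. PAX5, which maintains B-cell identity, did not pass (-0.64 ± 0.34, adjusted p = 0.118), but did so without JEKO-1 CLF replicate 2 (adjusted p = 0.0486).

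CCND1 (chr11:69641156-69654475, GRCh38) was 378 to 3141 CPM in Z138 (median 2078) and 663 to 2191 CPM in JEKO-1 (median 1075). The lines overlap over most of this range and the difference was 0.00 ± 0.22 (adjusted p = 0.995), which turned slightly negative under other scalings. The lowest Z138 values were those of the IBR and YM155 libraries. SOX11 (chr2:5692384-5701386) was 299 to 1182 CPM in Z138 (median 442) and 79.5 to 141 CPM in JEKO-1 (median 90.2). Every Z138 library lay above every JEKO-1 library, a difference of 2.31 ± 0.23 (adjusted p = 1.85e-07). Both genes that mark mantle cell lymphoma were thus detected in every library of both lines.

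The immunoglobulin variable segments separated the lines completely. Each B-cell clone uses one rearranged heavy chain segment and one rearranged light chain segment, kappa or lambda. In Z138 a lambda segment, IGLV1-51 (chr22:22322472-22322970), supplied 97.9 to 100% of the CPM of the 15 lambda segments in the table and led in 9 of 9 libraries. It was 101 to 1089 CPM in Z138 (median 895) and listed at 0 in every JEKO-1 library. In JEKO-1 a kappa segment, IGKV3-20 (chr2:89142574-89143161), supplied 97.9 to 99.8% of the CPM of 20 kappa segments and led in 8 of 8 libraries. It was 0 to 0.260 CPM in Z138 (median 0.0624) and 310.2 to 1509 CPM in JEKO-1 (median 708), a difference of -9.51 ± 0.24. The heavy chain segment IGHV2-70 (chr14:106770577-106771021) led in 8 of 8 JEKO-1 libraries with 95.8 to 99.6% of the CPM of 14 segments, 172 to 815 CPM in JEKO-1 (median 290.4), and was listed at 0 in every Z138 library. In Z138 the leading heavy chain segment was IGHV1-2, but the class as a whole reached no more than 24.8 CPM, so its lead of 62.3 to 95.5% rests on few reads. The segments were picked out after their values were seen, and reads of near-identical segments such as IGKV3-20 and IGKV3D-20 could be split between them by the authors' counting. In the 11 libraries of these lines that the comparison left out, IGLV1-51 led in 4 of 4 Z138 libraries, with 99.4 to 99.9%, and IGKV3-20 in 7 of 7 JEKO-1 libraries, with 87.4 to 99.7%. By these shares no library of either line went against its label.

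A gene was called line-restricted where it was at 5 CPM or more in every library of one line and under 0.5 CPM in every library of the other. There were 99 such genes, 18 restricted to Z138 and 81 to JEKO-1, spread over 8 and 21 chromosomes; 16 and 71 of them code for proteins. Of the Z138 genes 11 were listed at 0 in every JEKO-1 library, and of the JEKO-1 genes 22 were listed at 0 in every Z138 library. Just inside the upper threshold lay SLC16A7 and MNX1-AS1, whose lowest values in their own line were 5.18 and 5.19 CPM, and just outside it ARL6 (4.94 CPM) and TLX2 (4.90 CPM). At the lower threshold RAB3IL1, with a highest value of 0.464 CPM in Z138, lay inside and PLD6, with 0.517 CPM in JEKO-1, outside. Because the rule chose these genes by this contrast, their levels below are a description.

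The Z138-restricted genes with the highest means included, after IGLV1-51, ZDBF2, ROBO1, CDK6, RBFOX2, PCDHGB5 and HOOK1. ZDBF2, an imprinted zinc finger gene, was 39.8 to 126 CPM in Z138 (median 101) and listed at 0 in every JEKO-1 library. ROBO1 (chr3:78597239-79767999), the receptor for SLIT guidance cues, was 50.6 to 132 CPM in Z138 (median 76.8) and listed at 0 in every JEKO-1 library. RBFOX2, a splicing regulator, was 21.7 to 69.8 CPM in Z138 (median 43.6) and 0 to 0.346 CPM in JEKO-1 (median 0.0287). Genes with large differences that fell short of the restriction rule included the neuronal pentraxin NPTX1, at 79.1 to 784 CPM in Z138 (median 446) and 0 to 1.16 CPM in JEKO-1 (median 0.342), with a difference of 7.90 ± 0.31. The postsynaptic scaffold SHANK1 was 111 to 349 CPM in Z138 (median 269) and 0 to 0.987 CPM in JEKO-1 (median 0.0575), a difference of 7.68 ± 0.25. The beta-tubulin TUBB2B (5.81), the mitochondrial phospholipase PLD6 (5.79), the kinase gene ALPK2 (5.81), the EGF receptor ligand HBEGF (5.73) and PAX8-AS1 (5.96) followed. PAX8-AS1 overlaps PAX8 on the other strand, and since the library kit does not mark strand the reads of the 2 genes cannot be told apart. None of these genes overlapped between the lines.

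The JEKO-1-restricted genes with the highest means after the 2 variable segments were TCL1A, DPEP3, CTCFL, IGHG3, PRAME and RASSF6. TCL1A, a lymphoid oncogene that binds AKT, was 0 to 0.130 CPM in Z138 (median 0) and 75.7 to 1159 CPM in JEKO-1 (median 196), a difference of -8.09 ± 0.39. Several are genes whose normal expression is largely in the testis. CTCFL (chr20:57495966-57525653), the germ-cell paralog of CTCF also called BORIS, was 154 to 340.4 CPM in JEKO-1 (median 239). It was listed at 0 in every Z138 library. The testis dipeptidase DPEP3 was 161 to 323 CPM in JEKO-1 (median 219) and listed at 0 in every Z138 library. PRAME (chr22:22547701-22559362), a cancer-testis antigen, was 0 to 0.0755 CPM in Z138 (median 0) and 119 to 226 CPM in JEKO-1 (median 186), a difference of -7.41 ± 0.20. Outside the germ line, RASSF6 (-6.84), osteopontin (SPP1, -6.84) and the growth factor BMP7 (-6.63) showed large differences.

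The promoters of ZDBF2 and TCL1A are shown because each stands for one direction of the on-off contrast and each gene is off, or at most 0.130 CPM, in the line that lacks it. Each sequence is RefSeq's (GRCh38.p14), 5′ to 3′ on the gene's strand, and covers 250 bases before and 50 after the annotated start: chr2:206274413-206274712 (plus strand) for ZDBF2 and chr14:95714076-95714375 (minus strand) for TCL1A. Capitals mark the CG dinucleotides, the letters that DNA methylation acts on in human cells.
ZDBF2: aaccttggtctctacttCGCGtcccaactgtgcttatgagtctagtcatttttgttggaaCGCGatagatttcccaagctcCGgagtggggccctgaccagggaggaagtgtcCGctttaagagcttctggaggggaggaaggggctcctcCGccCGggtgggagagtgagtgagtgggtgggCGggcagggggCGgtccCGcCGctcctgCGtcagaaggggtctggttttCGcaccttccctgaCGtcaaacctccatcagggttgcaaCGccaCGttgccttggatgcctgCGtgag
TCL1A: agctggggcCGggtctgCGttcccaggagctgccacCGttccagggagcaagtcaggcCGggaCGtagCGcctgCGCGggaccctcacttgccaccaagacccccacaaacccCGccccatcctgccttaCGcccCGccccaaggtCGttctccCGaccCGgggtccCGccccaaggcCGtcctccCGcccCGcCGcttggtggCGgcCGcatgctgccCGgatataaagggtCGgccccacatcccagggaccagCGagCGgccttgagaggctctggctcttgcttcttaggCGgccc
The ZDBF2 window holds 18 CG and the TCL1A window 26. A CG occurs in 96.0% of the 35116 windows of this length in the table, which hold 0 to 77 with a median of 14; 55.5% of windows hold fewer than that of ZDBF2 and 69.9% fewer than that of TCL1A. RefSeq lists 2 starts for ZDBF2, of which the one nearest the deposited gene start is shown. The windows were matched for 13 of the 18 and 64 of the 81 restricted genes, too few to compare CG content over the sets, and DNA methylation was not measured.

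The restricted genes were then read in the libraries the comparison had not used, 4 of Z138 and 7 of JEKO-1 under BTZ or combinations of agents. All 18 Z138 genes were above every JEKO-1 library in all 4 Z138 libraries, where 23.6% of all 14485 genes were, and 11 of them met both thresholds again. Of the 81 JEKO-1 genes 69 were above every Z138 library in all 7 JEKO-1 libraries, where 2.51% of all genes were, and 21 met both thresholds. Of the left-out JEKO-1 libraries 6 carried 59.1 to 80.5% mitochondrial transcripts. The other, BTZ replicate 3, carried 9.92%. Without BTZ replicate 3 the count of JEKO-1 genes with no overlap was 80, and that of Z138 genes was again 18. BTZ replicate 3 shows the JEKO-1 variable segments, with IGKV3-20 at 17.1 CPM and IGHV2-70 at 4.12 CPM.

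MINO-P (6 libraries) and MINO-VR (5 libraries) under IBR, YM155 or S63845 show where these genes stand in the other MCL lines of the series. Of the 18 Z138-restricted genes, 1 was at 5 CPM or more in all 11 MINO libraries, 12 were under 0.5 CPM in all of them and 5 lay between. Of the 81 JEKO-1-restricted genes 21 were high in all MINO libraries, among them TCL1A, IGHG3, RASSF6 and CDKN2A. Another 28 were low in all of them, among them IGKV3-20, IGHV2-70, CTCFL, PRAME and BMP7, and 32 lay between. The TCL1A level separates Z138 from the other 3 lines, while CTCFL and PRAME separate JEKO-1 from the other 3.

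**Figure D2:**
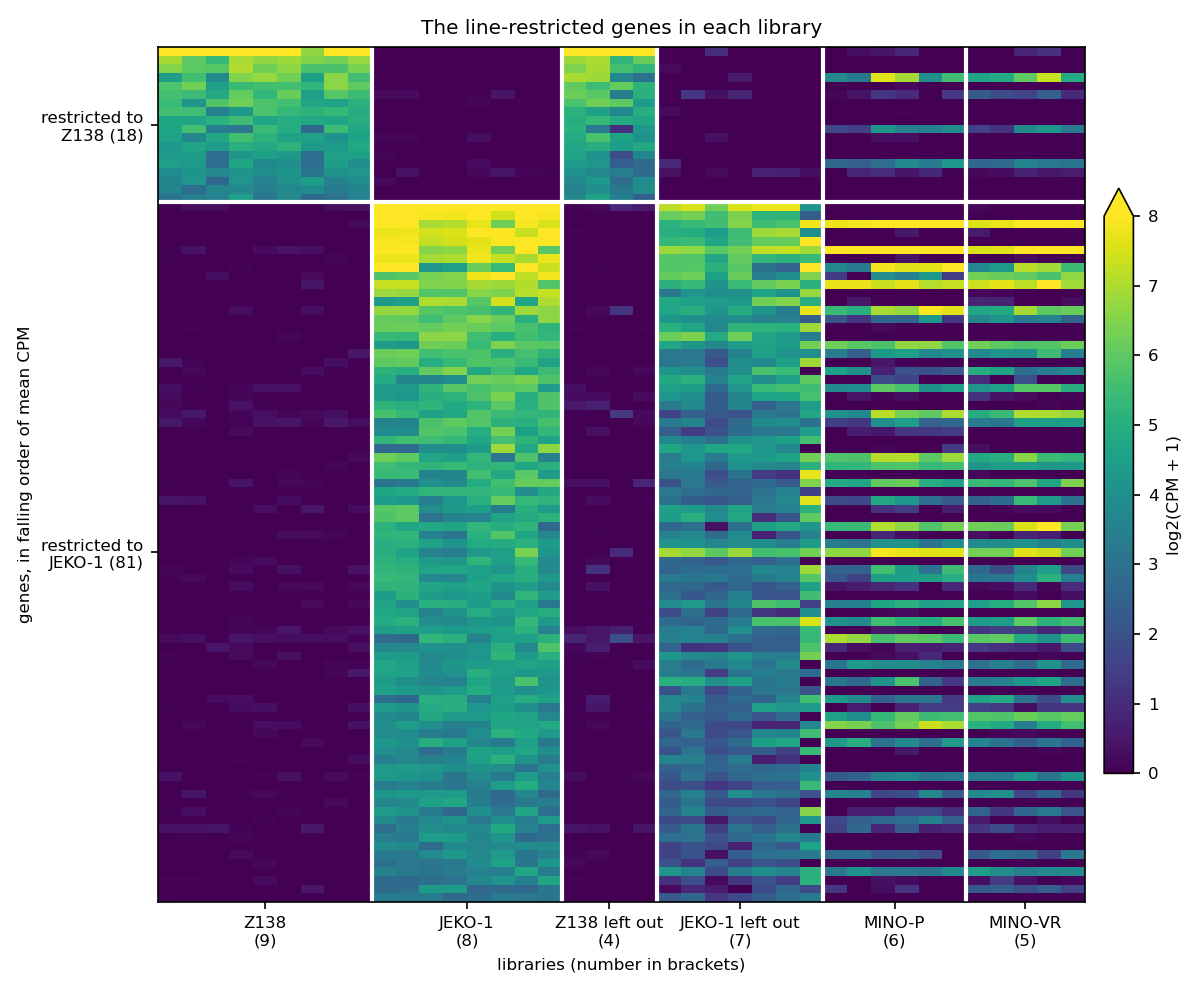
Colour gives log2(CPM + 1) of the 18 Z138-restricted and 81 JEKO-1-restricted genes (rows, by falling mean) in each library (columns), with white lines between Z138, JEKO-1, their left-out libraries, MINO-P and MINO-VR. The Z138 rows stay bright in the 4 left-out Z138 libraries, the JEKO-1 rows are paler in the 7 left-out JEKO-1 libraries, of which BTZ replicate 3 is the last column, and some rows of both sets are bright in the MINO lines.

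Among 24 genes of cyclin D and G1 control, 9 (37.5%) were higher in Z138 and 10 (41.7%) higher in JEKO-1, with a median difference of 0.06. The shares over all genes were 28.1% and 27.7%. The 2 lines shared CCND1 but differed in the kinases and inhibitors that act with it. CDK6 (chr7:92604921-92836574), one of the 2 kinase partners of D-type cyclins, was 22.5 to 97.5 CPM in Z138 (median 47.3) and listed at 0 in every JEKO-1 library (adjusted p = 1.47e-12). The other partner, CDK4, was 131 to 341 CPM in Z138 (median 309.7) and 584 to 1401 CPM in JEKO-1 (median 748), a difference of -1.77 ± 0.15 (adjusted p = 2.73e-08). Each line thus had more of one partner, and neither gene overlapped between the lines. CCND3, a second D-type cyclin, was 24.4 to 40.3 CPM in Z138 (median 34.1) and 65.6 to 122 CPM in JEKO-1 (median 86.1), a difference of -1.45 ± 0.15 (adjusted p = 4.02e-07) with no overlap.

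CDKN2A (chr9:21967752-21995302), which encodes the CDK4 and CDK6 inhibitor p16 and the MDM2 inhibitor ARF, was 0 to 0.387 CPM in Z138 (median 0) and 56.4 to 159 CPM in JEKO-1 (median 117). Of the 9 Z138 libraries the highest was YM155 replicate 1, and the difference was -6.79 ± 0.21 (adjusted p = 4.78e-14). Its neighbour CDKN2B, which encodes p15, was listed at 0 in every Z138 library and 1.17 to 12.8 CPM in JEKO-1 (median 5.49) (adjusted p = 1.68e-06). In the left-out libraries CDKN2A was 0 in every Z138 library and 16.5 to 82.6 CPM in JEKO-1, and it was 136 to 214 CPM in MINO-P and 117 to 269 CPM in MINO-VR. Among the 11 other tested genes within 1000 kb of CDKN2A on either side, 1 was higher in Z138 and 5, CDKN2B included, higher in JEKO-1, with a median of -0.59. This window was chosen after the values were seen. HACD4 differed most among these neighbours, at 0.0774 to 1.92 CPM in Z138 (median 0.976) and 16.4 to 40.5 CPM in JEKO-1 (median 21.4), by -3.60. IFNW1 was listed at 0 in every Z138 library and was 0.745 to 2.54 CPM in JEKO-1. MTAP had medians of 54.6 CPM in Z138 and 55.7 CPM in JEKO-1 (-0.59, called), and KLHL9 was the gene higher in Z138 (0.92). The CIP/KIP inhibitors went the other way: CDKN1A (p21) by 1.56 ± 0.15, CDKN1B (p27) by 1.48 ± 0.17 and CDKN1C (p57) by 2.23 ± 0.22, each higher in Z138.

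**Figure D3:**
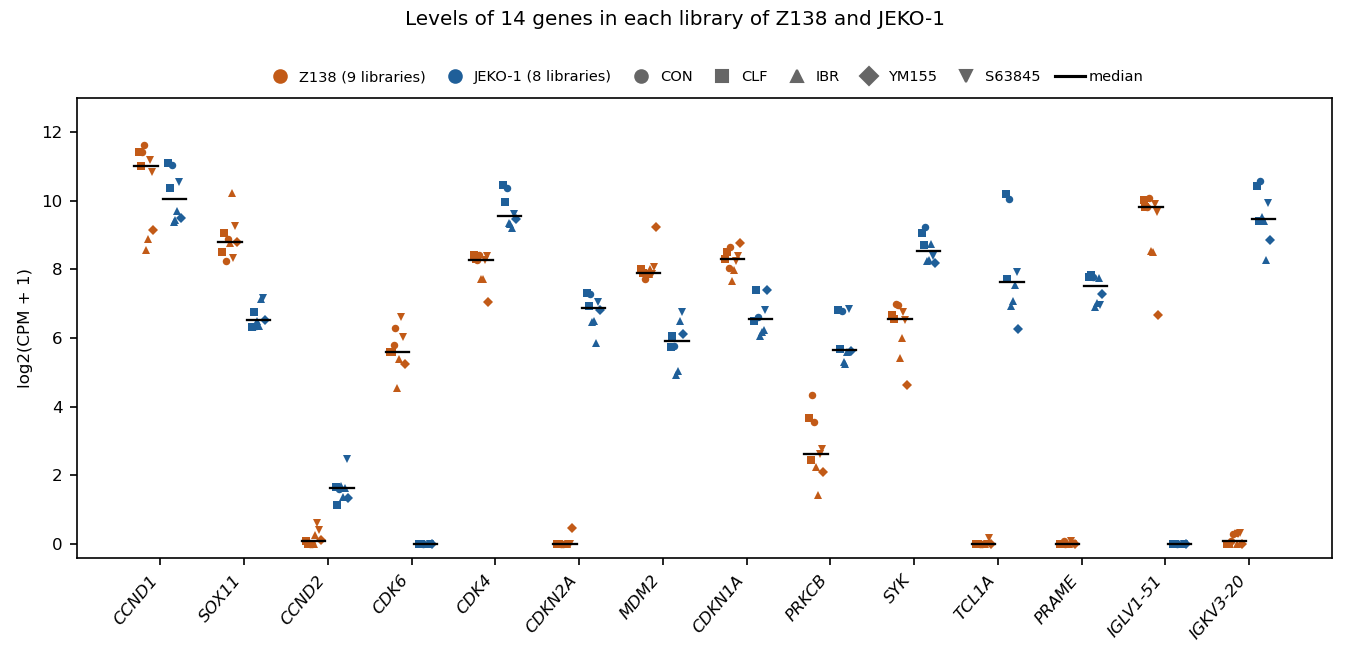
Vertical axis, log2(CPM + 1) of 14 genes; each symbol is 1 library of Z138 (orange, 9) or JEKO-1 (blue, 8), its shape gives the treatment, and the bar is the median of the line. CDKN2A, CDK6 and SYK do not overlap between the lines, while CCND1 does.

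MDM2, a ubiquitin ligase gene amplified in some tumours, was 208 to 601 CPM in Z138 (median 239) and 29.3 to 107 CPM in JEKO-1 (median 59.2), a difference of 2.16 ± 0.22 (adjusted p = 3.36e-07) with no overlap. CDKN1A, the p21 inhibitor above, was 199.9 to 434 CPM in Z138 (median 314) and 66.2 to 169 CPM in JEKO-1 (median 92.8) (adjusted p = 1.12e-07).

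Of 33 tested genes of B-cell receptor signalling 20 (60.6%) were higher in JEKO-1, 2 (6.06%) were higher in Z138 and 11 did not pass. The shares over all genes were 27.7% and 28.1%, and the median over the list was -0.97. The summed levels of the list overlapped, 1303 to 3285 CPM in Z138 and 2222 to 4690 CPM in JEKO-1. At CON, with 2 Z138 libraries and 1 JEKO-1 library, the median over the list was -1.29. PRKCB, a kinase that carries the signal towards NF-kB, was 1.68 to 19.5 CPM in Z138 (median 5.21) and 36.6 to 114 CPM in JEKO-1 (median 49.4), a difference of -3.44 ± 0.24 (adjusted p = 2.18e-09). SYK, the first kinase recruited to the receptor, was 23.9 to 126 CPM in Z138 (median 93.3) and 290.5 to 595 CPM in JEKO-1 (median 374), a difference of -2.47 ± 0.18 (adjusted p = 3.61e-09) with no overlap.

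Further along or beside this path the adaptor LAT2 (-2.31), the Src-family kinase BLK (-1.82), the inhibitory co-receptor CD22 (-2.18) and the receptor's own signalling chain CD79B (-1.22) were higher in JEKO-1. BCL10, an adaptor on the way to NF-kB, went the other way (0.98 ± 0.20, adjusted p = 5.70e-04).

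Among 31 genes of the NF-kB pathway and its targets, 4 were higher in Z138 and 8 higher in JEKO-1, shares near or below the 28.1% and 27.7% over all genes. These counts were 6 and 13 without the Z138 libraries ending in A, and 5 and 8 without the other Z138 libraries. The feedback inhibitor TNFAIP3 (A20) was 69.9 to 238 CPM in Z138 (median 196) and 11.7 to 68.8 CPM in JEKO-1 (median 35.1), a difference of 2.45 ± 0.22 (adjusted p = 4.60e-08) with no overlap. The inhibitor NFKBIA was also higher in Z138 (1.32). The adaptors TRAF1 (-2.92) and TRAF2 (-2.42) were higher in JEKO-1.

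Of 31 tested B-cell transcription factors 8 (25.8%) were higher in Z138 and 13 (41.9%) higher in JEKO-1, beside 28.1% and 27.7% of all genes. IRF8, a factor of germinal centre and naive B cells, was 5.03 to 14.8 CPM in Z138 (median 8.96) and 57.3 to 402 CPM in JEKO-1 (median 87.6), a difference of -3.91 ± 0.26 (adjusted p = 9.97e-10) with no overlap. MEF2C was 0 to 0.375 CPM in Z138 (median 0) and 9.73 to 68.3 CPM in JEKO-1 (median 26.8), a difference of -4.70 ± 0.29. Its paralog MEF2B was 119.9 to 469 CPM in Z138 (median 406) and 19.5 to 189 CPM in JEKO-1 (median 56.2), a difference of 2.63 ± 0.37 (adjusted p = 1.16e-05), so the 2 family members differed in opposite directions. AFF3 (-4.91), a nuclear factor of lymphoid cells, and BCL11A (-2.96) were higher in JEKO-1, while EBF1 (1.49 ± 0.23) and KLF2 (1.73) were higher in Z138.

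Most plasma-cell genes were higher in Z138: of 9 tested, 6 (66.7%) were higher in Z138 and 1 (11.1%) higher in JEKO-1, with a median of 0.88. The shares over all genes were 28.1% and 27.7%. Their summed level was 855 to 3326 CPM in Z138 and 683 to 932 CPM in JEKO-1. Syndecan-1 (SDC1, CD138) was 8.97 to 123 CPM in Z138 (median 47.2) and 0 to 12.6 CPM in JEKO-1 (median 3.27), a difference of 3.17 ± 0.29 (adjusted p = 6.67e-08) with a small overlap. CD38 was 30.2 to 258 CPM in Z138 (median 133) and 5.50 to 31.4 CPM in JEKO-1 (median 11.6), a difference of 2.87 ± 0.36 (adjusted p = 3.43e-06), and only the edges of the 2 ranges meet. PRDM1, which encodes the plasma-cell regulator BLIMP1, differed by 1.71 ± 0.43 (adjusted p = 0.0025). JCHAIN, the chain that joins IgM and IgA into polymers, was 221 to 1714 CPM in Z138 (median 1063) and 0.259 to 203 CPM in JEKO-1 (median 29.9), a difference of 4.31 ± 0.55. SLAMF7, the target of elotuzumab, went the other way (-3.85 ± 0.49).

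Of 35 tested surface antigens 22 (62.9%) were higher in JEKO-1 and 6 (17.1%) higher in Z138, with a median of -0.79. The shares over all genes were 27.7% and 28.1%. CD44, the hyaluronan receptor, was listed at 0 in every Z138 library and 9.18 to 82.2 CPM in JEKO-1 (median 20.6), and the tetraspanin CD82 was 0 to 0.155 CPM in Z138 (median 0) and 8.39 to 32.4 CPM in JEKO-1 (median 23.4). CD180 (-4.76), a Toll-like receptor homologue, and CD27 (-4.38), a TNF receptor of memory B cells, were also higher in JEKO-1. CD5, the T-cell antigen that most mantle cell lymphomas carry, was 0 to 0.464 CPM in Z138 (median 0) and 0.987 to 10.1 CPM in JEKO-1 (median 3.51), low in both lines but without overlap (-2.30 ± 0.29, adjusted p = 4.15e-06). Next to SDC1 and CD38, the low-affinity IgE receptor FCER2 (CD23) was higher in Z138 (3.04 ± 0.39).

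Homing and adhesion genes divided in both directions, 5 of 28 (17.9%) higher in Z138 and 11 (39.3%) higher in JEKO-1. The shares over all genes were 28.1% and 27.7%. The follicle-homing receptor CXCR5 (-3.67), the sphingosine phosphate receptor S1PR4 (-3.88), PECAM1 (-3.34) and the integrin ITGAL (-2.07) were higher in JEKO-1. The metalloprotease ADAM28 (2.99), GPR18 (1.92) and ICAM2 (1.02) were higher in Z138.

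The light chain constant genes did not all follow the variable segments. IGLC1, a lambda constant gene, was 116 to 777 CPM in Z138 (median 558) and 0.00722 to 44.3 CPM in JEKO-1 (median 15.8), a difference of 5.37 ± 0.45 (adjusted p = 2.43e-08), but IGLL5 overlaps it and their reads are uncertain. IGLC2 was also higher in Z138, at 14.7 to 339 CPM in Z138 (median 147) and 1.60 to 143 CPM in JEKO-1 (median 18.5), with overlap and a difference of 1.74 ± 0.34, a call that ended without the 4 JEKO-1 libraries above 10% mitochondrial (adjusted p = 0.0665). IGLC7, another lambda constant gene, went the other way, at 0 to 0.195 CPM in Z138 (median 0) and 3.63 to 175 CPM in JEKO-1 (median 20.8), a difference of -4.81 ± 0.52 (adjusted p = 5.81e-07) with no overlap. These lambda constant genes are near copies of each other, so their single counts are uncertain. IGKC, the kappa constant gene, was 207 to 424 CPM in Z138 (median 288) and 891 to 2053 CPM in JEKO-1 (median 1357), a difference of -2.31 ± 0.18 (adjusted p = 1.02e-08), so that Z138 kept a kappa constant transcript while its kappa segments together reached at most 0.749 CPM. IGHM, the mu heavy chain, differed by -1.04 ± 0.26 (adjusted p = 0.00241), a call that ended without the 4 JEKO-1 libraries above 10% mitochondrial (adjusted p = 0.0651) or without the Z138 libraries ending in A (adjusted p = 0.0638). IGHG3, a gamma chain, was 0 to 0.345 CPM in Z138 (median 0.0624) and 59.7 to 403 CPM in JEKO-1 (median 157), a difference of -7.29 ± 0.29. IGLL1, the surrogate light chain of precursor B cells, was 24.6 to 922 CPM in Z138 (median 298) and 0 to 10.4 CPM in JEKO-1 (median 0), a difference of 6.21 ± 0.47.

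Antigen presentation genes showed differences in both directions. Of 18 MHC class II genes 3 (16.7%) were higher in Z138 and 6 (33.3%) higher in JEKO-1. Of 19 MHC class I genes the counts were 5 (26.3%) and 2 (10.5%). The shares over all genes were 28.1% and 27.7%, so most of these are near or below them. The class I counts were 3 and 4 without the Z138 libraries ending in A and 9 and 1 without the other Z138 libraries. HLA-DQA1 was higher in Z138 (1.82 ± 0.17) while its near copy HLA-DQA2 was higher in JEKO-1 (-3.54 ± 0.24). HLA-DRB5 (-2.28) and the peptide loading chain HLA-DMB (-1.52) were higher in JEKO-1. HLA alleles and paralogs can exchange reads in counting against one reference, so the HLA values are uncertain for each gene. The peptide trimming enzyme ERAP2 was 134 to 250.1 CPM in Z138 (median 148) and 30.9 to 86.2 CPM in JEKO-1 (median 52.0), a difference of 1.64 ± 0.19 (adjusted p = 1.76e-06) without overlap, and ERAP1 was also higher in Z138 (1.48).

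Of the targets of the study's agents, BIRC5 passed the test and MCL1 did not. MCL1 was 245 to 462 CPM in Z138 (median 349) and 272 to 494 CPM in JEKO-1 (median 357), and its difference of -0.04 ± 0.16 (adjusted p = 0.842) lay within the spread of both lines. BCL2L1 (BCL-XL) did not pass either (0.35 ± 0.18, adjusted p = 0.105). BIRC5 was 44.5 to 189 CPM in Z138 (median 144) and 83.3 to 249.6 CPM in JEKO-1 (median 177), with overlap. Its difference of -0.76 ± 0.18 (adjusted p = 0.0019) was not called without the 4 JEKO-1 libraries above 10% mitochondrial (-0.45, adjusted p = 0.0810). Nor was it called without the treatment block (-0.58, adjusted p = 0.0832) or with BTZ and IBR_CLF added (-0.47, adjusted p = 0.434). At CON the BIRC5 difference was -0.53.

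BCL2, the target of venetoclax, was 72.6 to 252 CPM in Z138 (median 226) and 222 to 554 CPM in JEKO-1 (median 302). Its difference of -0.87 ± 0.25 (adjusted p = 0.00652) was not called without those 4 libraries (-0.48, adjusted p = 0.287) and was 0.14 in the 3 untreated libraries. Over the BCL2 family 1 of 13 tested genes (7.69%) was higher in Z138 and 4 (30.8%) higher in JEKO-1, beside 28.1% and 27.7% of all genes. These counts were 0 and 4 without the Z138 libraries ending in A, and 3 and 4 without the other Z138 libraries. In the main fit the BH3-only gene BID (-1.63) and the effector BAK1 (-1.38) were higher in JEKO-1. Among the 6 inhibitors of apoptosis, BIRC2 (cIAP1) was higher in JEKO-1 (-1.11 ± 0.17) and NAIP higher in Z138 (1.78 ± 0.35).

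Of 41 interferon-stimulated genes 17 (41.5%) were called higher in JEKO-1 and 4 (9.76%) higher in Z138, with a median of -0.92. The shares over all genes were 27.7% and 28.1%. The counts of this list moved with the suffix of the Z138 library names. In all 4 Z138 pairs the library ending in A was the higher one for 35 of the 41 genes (85.4%), beside 23.2% of all genes. Without the Z138 libraries ending in A, 32 were higher in JEKO-1 and 3 higher in Z138 (median -2.62). Without the other Z138 libraries, 8 were higher in JEKO-1 and 7 higher in Z138 (median 0.06). OAS3, a sensor of double-stranded RNA, was 0 to 17.2 CPM in Z138 (median 0.359) and 54.3 to 1397 CPM in JEKO-1 (median 181), a difference of -6.03 ± 0.68 (adjusted p = 9.63e-07). IFI27 was 0.0624 to 23.7 CPM in Z138 (median 1.21) and 104 to 352 CPM in JEKO-1 (median 179), a difference of -5.47 ± 0.55 (adjusted p = 2.35e-07), and CMPK2 differed by -4.97 ± 0.51. Within each line these genes varied widely: the JEKO-1 CLF replicate 2 and YM155 libraries were the highest for OAS3, and in Z138 it was 0.0624 and 0.359 CPM in the CON libraries, 0 and 12.7 CPM under CLF, 0 and 17.2 CPM under IBR and 0 and 4.55 CPM under S63845, the library ending in A being second in each pair. SAMD9 was higher in Z138 (2.39 ± 0.37). Without the 4 JEKO-1 libraries above 10% mitochondrial the counts over 40 genes were 7 higher in JEKO-1 and 1 higher in Z138, while the median was -1.16.

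Chromatin regulators leaned towards Z138, 12 of 27 (44.4%) higher there and 2 (7.41%) higher in JEKO-1, with a median of 0.47. The shares over all genes were 28.1% and 27.7%. Without the Z138 libraries ending in A the counts were 10 and 3, with a median of 0.24. The H3K4 demethylase KDM5B was 159 to 346 CPM in Z138 (median 238) and 3.73 to 23.8 CPM in JEKO-1 (median 5.93), a difference of 4.68 ± 0.30 (adjusted p = 7.40e-10), and the H3K27 demethylase KDM6B was 104 to 518 CPM in Z138 (median 259.8) and 9.87 to 97.2 CPM in JEKO-1 (median 29.9), a difference of 3.19 ± 0.30 (adjusted p = 8.38e-08). Neither overlapped between the lines. The H3K27 methyltransferase EZH1 was also higher in Z138 (2.12) and the DNA methyltransferase DNMT3B higher in JEKO-1 (-1.17).

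Of 25 DNA damage response genes 2 (8%) were higher in Z138 and 7 (28%) higher in JEKO-1, beside 28.1% and 27.7% of all genes. These counts were 1 and 6 without the Z138 libraries ending in A, and 5 and 5 without the other Z138 libraries. The double-strand break nuclease MRE11 (-1.50), the recombination gene XRCC3 (-1.26), the kinase ATM (-0.95) and the repair methyltransferase MGMT (-1.01) were higher in JEKO-1, the call of ATM ending without the Z138 libraries that lack a final A (adjusted p = 0.102). NBN, a partner of MRE11, was higher in Z138 (0.73). Of 17 drug handling genes 3 (17.6%) and 7 (41.2%) were higher in Z138 and JEKO-1. SLC35F2, the solute carrier known to import YM155, was higher in JEKO-1 (-1.50 ± 0.23, adjusted p = 3.05e-05). The glutathione transferase GSTM1 was higher in Z138 (2.59), and the aldehyde dehydrogenase ALDH2 higher in JEKO-1 (-2.47).

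**Figure D4:**
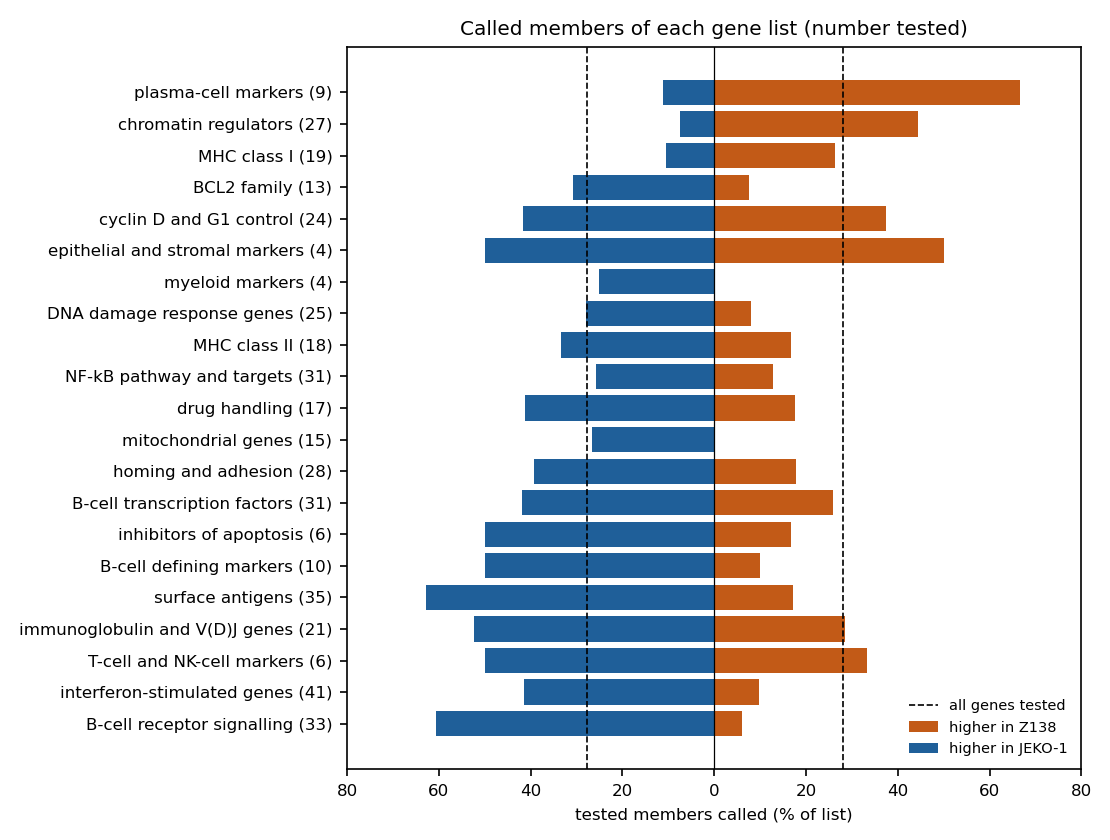
Bars give the percent of tested members called higher in Z138 (right of 0) and higher in JEKO-1 (left of 0) in each gene list, in the order of the median difference, and dashed lines the same over all 14485 genes (28.1% and 27.7%). B-cell receptor signalling and surface antigens extend furthest to the JEKO-1 side among the larger lists, and chromatin regulators and plasma-cell markers extend to the Z138 side.

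Markers of T, NK and myeloid cells were low in both lines, while vimentin in both lines and COL1A1 in Z138 stood higher among the epithelial and stromal markers. T and NK cell markers summed to 2.70 to 19.7 CPM in Z138 and 15.7 to 96.8 CPM in JEKO-1, and the JEKO-1 level was led by TRBC2, the T-cell receptor beta constant gene, 0 to 0.130 CPM in Z138 (median 0) and 7.96 to 74.3 CPM in JEKO-1 (median 30.9). Of the 14 genes in that list 10 were under 1 CPM in every Z138 library and 9 in every JEKO-1 library. CD3G was higher in Z138 (2.45). Myeloid markers summed to 27.6 to 65.2 CPM in Z138 and 34.4 to 75.2 CPM in JEKO-1. Epithelial and stromal markers summed to 494 to 1650 CPM in Z138 and 201 to 468 CPM in JEKO-1, mostly vimentin (VIM), which was 477 to 1576 CPM in Z138 (median 820.2) and 188 to 443 CPM in JEKO-1 (median 388), a difference of 1.23 ± 0.20. COL1A1, a chain of type I collagen, was 9.82 to 71.9 CPM in Z138 (median 34.1) and 0.129 to 11.1 CPM in JEKO-1 (median 2.59), a difference of 3.01 ± 0.46 (adjusted p = 3.12e-05) with overlap. The part of these markers in the results above was not tested.

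A pair of gene families stood out after the values were seen and are given as a description. On chromosome 19, which holds large arrays of KRAB zinc finger genes, 172 of 235 tested ZNF genes (73.2%) were higher in Z138 and 5 higher in JEKO-1, with a median of 1.05. Of all 1095 tested genes of chromosome 19, 39.1% were higher in Z138 and 23.7% higher in JEKO-1, with a median of 0.24. Of the 223 ZNF genes on other chromosomes 97 (43.5%) were higher in Z138 and 31 (13.9%) higher in JEKO-1, with a median of 0.29. Over all genes 28.1% were higher in Z138, so ZNF genes leaned to Z138 off chromosome 19 as well, though less. Along chromosome 19 the medians were uneven. They were -0.30 from 0 to 10 Mb, 0.06 from 10 to 20 Mb and 1.19 from 20 to 30 Mb. Further along they were 0.64 from 30 to 40 Mb, 0.05 from 40 to 50 Mb and 0.86 from 50 to 60 Mb. In all 4 Z138 pairs the library ending in A was the higher one for 43.4% of the 235 chromosome 19 ZNF genes. For the 223 others it was 44.8%, beside 23.2% of all genes. Without the 4 JEKO-1 libraries above 10% mitochondrial the chromosome 19 counts were 130 and 6 of 233, with a median of 0.90. Without the Z138 libraries ending in A they were 128 and 5 of 230, with a median of 0.91. Of the gamma protocadherins, cell adhesion genes that share their last exons, 12 of 19 (63.2%) were higher in Z138 and 3 (15.8%) higher in JEKO-1. PCDHGB5 was 17.5 to 73.9 CPM in Z138 (median 41.0) and 0 to 0.108 CPM in JEKO-1 (median 0), and at the other end PCDHGC3 differed by -3.52. Because of the shared exons, counts of single members are uncertain.

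Median differences by chromosome ran from -0.44 on chromosome 9 and -0.39 on chromosome 11 to 0.45 on chromosome 17, beside 0.03 over all genes. In 240 windows of 10 Mb with at least 20 tested genes, medians ran from -1.35 to 1.19, with 32 above 0.5 and 22 below -0.5. The lowest was on chromosome 11 from 100 to 110 Mb, where 28 genes had a median of -1.35 and 7.14% were above 0. BIRC2, ATM and SLC35F2 lie in that window and MRE11 in the window before it (30 genes, median -1.17). The next lowest, on chromosome 8 from 10 to 20 Mb (33 genes, median -1.27), holds BLK. The highest were on chromosome 19 from 20 to 30 Mb (41 genes, median 1.19) and chromosome 17 from 10 to 20 Mb (82 genes, median 1.13). Within 1500 kb on either side, a window chosen after the values were seen, CDK6 has 16 tested neighbours. Of these 12 were higher in Z138 and 1 higher in JEKO-1, and their differences ran from -1.15 to 2.60 with a median of 1.52. CDK6 itself was listed at 0 in every JEKO-1 library and was at least 22.5 CPM in Z138. Copy number was not measured here, and its part in these values was not tested.

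**Figure D5:**
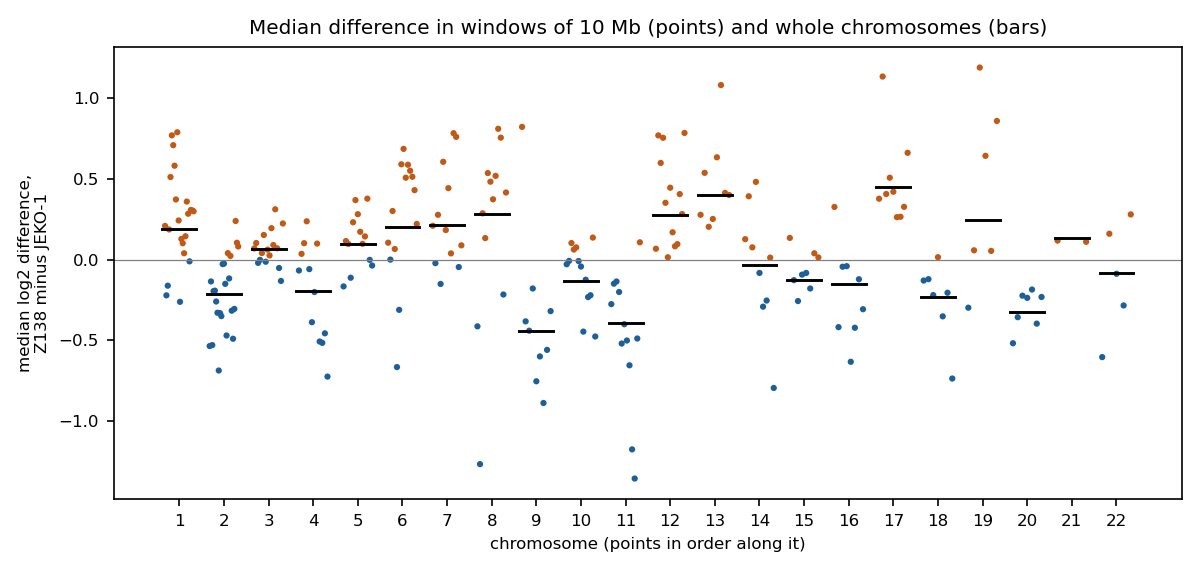
Each point is the median log2 difference (Z138 minus JEKO-1, vertical axis) of the tested genes in a 10 Mb window, in order along each chromosome (horizontal axis), and bars are whole chromosomes. Windows of chromosome 11 and chromosome 8 reach below -1, and windows of chromosomes 13, 17 and 19 reach above 1.

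The line difference seldom depended on treatment in a way these libraries could show. The interaction of line and treatment passed in 19 genes (0.131%), while 1772 had an unadjusted p under 0.05. The count was 2 without Z138 S63845 replicate 2, 3 to 5 without any one of 9 other libraries, 75 without JEKO-1 IBR replicate 3 and 93 without Z138 IBR replicate 2, so it rests on single libraries. MYC, the growth regulator, was the best known of them (adjusted p of the interaction 0.00473). In Z138 it was 954 and 1227 CPM in the CON libraries, 65.9 and 89.3 CPM in the IBR libraries and 54.6 CPM in the YM155 library. In JEKO-1 it stayed between 533 and 789 CPM in all 8. Its difference was 0.83 under CON, 0.33 under CLF, -3.18 under IBR, -3.83 under YM155 and 0.34 under S63845, so that the fitted line difference of -1.15 ± 0.48 (adjusted p = 0.0487) is an average over opposite values. That call ended without any one of 8 libraries (the 3 JEKO-1 and 2 Z138 IBR libraries, the YM155 library of either line, and Z138 S63845 replicate 2), with adjusted p from 0.0513 to 0.165. DHRS13 (0.00435), ATP5MF-PTCD1 (0.00691) and IGLC1 (0.0438) had the other interactions of smallest p. IGLV1-51 (0.0472) also passed, with several genes between it and IGLC1 in the order of p. Those between included rRNA and small RNA genes whose differences were largest under IBR and S63845. DHRS13, a dehydrogenase gene, was listed at 0 in the JEKO-1 S63845 library and at 19.2 CPM or more in the other JEKO-1 libraries. ATP5MF-PTCD1 is a readthrough gene whose reads are shared with its 2 parts.

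In a fit of the left-out BTZ and IBR_CLF libraries (3 of Z138, 5 of JEKO-1), 3335 of 13670 genes (24.4%) were called, 2925 higher in Z138 and 410 higher in JEKO-1, with a median of 1.03. Mitochondrial transcripts were 4.11 to 6.15% in these Z138 libraries. They were 59.1 to 67.6% in the JEKO-1 libraries other than BTZ replicate 3, which had 9.92%. CPM counts them in the total, and their part in the direction of the calls was not tested. Among 13396 genes tested in both fits, 2271 were called in the same direction in both. This is 29.9% of the 7588 called in the 17 libraries and 68.7% of the 3307 called in the left-out ones. The number of calls in the left-out libraries was 611 without JEKO-1 IBR_CLF replicate 1 and 8762 without JEKO-1 BTZ replicate 3. At CON, with 2 Z138 libraries and 1 JEKO-1 library, the median difference over all genes was -0.05. SOX11, CDK4, SYK and CDKN2A did not overlap between the lines, which by itself puts them on the same side in all 5 treatments. Taken over all genes, the median difference within a treatment ran from -0.21 (YM155) to 0.20 (S63845).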

How the data were processed

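Poly(A) RNA of MCL cell lines was sequenced, and the authors deposited one table of log2 expression values per gene and library. Per the submitters' processing notes Partek and hg38 were used; the aligner and counter are not given in the sources used here, and neither is the strand setting. The deposited log2 values were converted back to CPM, which summed to the same total in every library, and reads recovered from the steps of low values were whole for 80.4 to 87.8% of them within 0.05 reads. Since the table holds no counts, the planned count test gave way to limma 3.58.1 (R 4.3.3) on log2(CPM + 1) with an intensity trend, line as the coefficient and treatment as a block. Genes with 1 CPM or more in at least 2 libraries were tested, 15048 in all, with Benjamini-Hochberg adjustment over them; X and Y genes were then left out. The fit was tested on simulated data. The members and gene lists were chosen with earlier results of these data known. Named were the 12 largest differences in each direction among called genes with a mean of at least 1 CPM and no overlap, up to 4 called genes per list and direction, a set of lymphoma genes, the 8 highest restricted genes of each line and the 4 smallest interaction p. Among list genes the text gives mainly those that stayed called without any one library and without the libraries above 10% mitochondrial. CCND3, CDKN1B, ATM, PCDHGC3, RN7SL2 and the genes at the edge of the restriction rule were chosen after their values were seen. Some genes that the naming rule picks are not reported here. Alternatives changed the scaling, filter, pseudocount, block, weights and libraries.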

Additional observations from a re-analysis of the deposited data

Results flagged for a closer look

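In the values of the genes named above, 34 times a single library of a line lay far outside the other libraries of that line, by the ratio of its gap to the nearest library to the whole range (Dixon's 95% critical value for groups of 9 and 8). Tested were 246 groups, each a gene in the libraries of 1 line. Chance alone flags about 5% of groups, and several of these values are under the level of 3 reads. A group pools libraries of different treatments, so a stray library and a treatment difference cannot be told apart here. Z138 IBR replicate 2 was the highest of its line for SOX11 (1182 CPM), ERAP2 (250 CPM), BIRC2 (45.1 CPM), EZH1 (92.5 CPM), ALPK2 (207 CPM), RASSF6 (0.0526 CPM) and BMP7 (0.0526 CPM). Z138 YM155 replicate 1 was the highest of its line for CDKN2A (0.387 CPM), MDM2 (601 CPM), NFKBIA (425 CPM), CD5 (0.464 CPM) and MNX1-AS1 (0.387 CPM). Z138 CON replicate 1 was the highest of its line for IRF8 (14.8 CPM) and CD22 (8.80 CPM). Z138 S63845 replicate 1 was the highest of its line for CD27 (1.13 CPM). Z138 CON replicate 2 was the highest of its line for S1PR4 (1.67 CPM). Z138 IBR replicate 1 was the lowest of its line for TNFAIP3 (69.9 CPM) and CDKN1B (154 CPM). Z138 S63845 replicate 2 was the highest of its line for TRBC2 (0.130 CPM) and TCL1A (0.130 CPM). JEKO-1 S63845 replicate 1 was the highest of its line for CDKN1C (99.6 CPM), SDC1 (12.6 CPM) and CD44 (82.2 CPM). JEKO-1 IBR replicate 3 was the highest of its line for PRDM1 (65.6 CPM). JEKO-1 CLF replicate 2 was the highest of its line for FCER2 (2.01 CPM), GSTM1 (0.248 CPM) and PCDHGB5 (0.108 CPM). JEKO-1 YM155 replicate 1 was the highest of its line for KDM6B (97.2 CPM), ALPK2 (1.39 CPM) and RAB3IL1 (28.1 CPM). JEKO-1 CLF replicate 1 was the highest of its line for CD3G (0.230 CPM). JEKO-1 IBR replicate 3 was the lowest of its line for VIM (188 CPM). JEKO-1 IBR replicate 1 was the highest of its line for PAX8-AS1 (1.69 CPM). JEKO-1 S63845 replicate 1 was the lowest of its line for DHRS13 (0 CPM).

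The line difference depended on treatment, by the interaction of line and treatment over 17 libraries, for DHRS13 (0.00435), MYC (0.00473), ATP5MF-PTCD1 (0.00691), IGLC1 (0.0438) and IGLV1-51 (0.0472), given with the adjusted p of limma's F-test.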

How the results depend on the processing

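The labels give no replicate numbers and those used here follow accession order, so only the final letter of the library names could serve as a replicate block. No paired analysis was possible because that letter is in 1 JEKO-1 library and does not tie samples across the lines. With a block on it there were 7359 calls (3574 higher in Z138, 3785 higher in JEKO-1), beside 6170 without the Z138 libraries ending in A and 7295 without the other Z138 libraries, all chosen after seeing the data; 30 genes were then Z138-restricted in place of 18 without those ending in A. MYC was no longer called with this block (adjusted p = 0.104). The 8080 calls and their directions stayed within 1.5 times under size factors, without mitochondrial genes, without a filter or with a stricter one, with a pseudocount of 0.25 or 5, without the treatment block, with averaged libraries, with array weights and without the IBR libraries. For the difference at CON (2 Z138 libraries, 1 JEKO-1 library) the calls were 1955 (744 higher in Z138, 1211 higher in JEKO-1). They cover the same 14485 genes as the main fit, so the filter was not that of the 3 untreated libraries alone. A single JEKO-1 library shows no spread between libraries, so these counts cannot be read as a test within the untreated libraries. In the 3 untreated libraries the restricted genes were 374 in place of 99. With BTZ and IBR_CLF libraries added, 2382 genes were higher in JEKO-1 and 43 restricted. Without the 4 libraries above 10% mitochondrial, a choice made after seeing the data, 2466 genes were higher in Z138, beside 3502 higher in JEKO-1. Leaving out one library at a time gave 7368 to 8116 calls. Calls in the left-out libraries numbered 938 with size factors, 868 without mitochondrial genes and 9537 with array weights, beside 3335, and 611 to 8762 without one library. The interaction count of 19 became 463 without a filter, 35 and 40 with pseudocounts of 0.25 and 5, 164 with array weights, 3 with the JEKO-1 IBR pair averaged and 2 to 93 without one library. Of 113 called genes in the text, 79 kept their call under all 34 alternatives and 34 lost it under at least one. List genes were given mainly where they stayed called under some of these same alternatives. Those were the fits without any one library and without the libraries above 10% mitochondrial, so the counts do not measure robustness.

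Genes whose difference changed sign were 7. CCND1 was -0.0099 with size factors, -0.084 without mitochondrial genes, -0.0058 without the Z138 libraries lacking the A, -0.0022 with the suffix block and -0.11 to 0.13 without one library. MCL1 was 0.0032 without the block, 0.36 with BTZ and IBR_CLF added, 0.14 without the Z138 libraries lacking the A and -0.16 to 0.061 without one library. MS4A1 was -0.056 without mitochondrial genes, -0.10 with averaged libraries, -0.027 with the JEKO-1 IBR pair averaged, -0.25 with array weights, -0.38 without IBR, -0.77 in the untreated libraries, -0.22 without the libraries above 10% mitochondrial, -0.082 without the Z138 libraries lacking the A and -0.11 to 0.21 without one library. In the untreated libraries BCL2 was 0.14, MYC 0.83, ATP5MF-PTCD1 0.17 and DHRS13 -0.18. DHRS13 was also -0.61 without the libraries above 10% mitochondrial and -0.55 to 0.72 without one library. The cause of these changes was not tested. Depth limits the low side of the restricted genes: a count of 3 reads is 0.424 CPM in the shallowest library, close to the 0.5 CPM threshold.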
